A study of Mus musculus with 281 samples.

Results

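Small leucine-rich proteoglycans (SLRPs) are secreted proteins of the extracellular matrix with a core of leucine-rich repeats, and most of them carry chondroitin, dermatan or keratan sulfate chains. They bind collagen fibrils and set their spacing and thickness, and several of them also bind growth factors or cell surface receptors. The 10 SLRP genes described here were taken by name from the 47752 genes of the expression table: decorin, biglycan and asporin of class I (Dcn, Bgn, Aspn), lumican, fibromodulin, PRELP, osteomodulin and keratocan of class II (Lum, Fmod, Prelp, Omd, Kera), and epiphycan and osteoglycin of class III (Epyc, Ogn). All 10 genes had a line in the table. Kera had no count in any cell, and Epyc, which the study listed among the genes of root cells, had the most counts.

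The data are RNA sequencing of single cells from the stria vascularis, the secretory epithelium on the lateral wall of the cochlea that makes endolymph, and from the root cells beside it. Mice were of the 129S6 strain and male, and their genotypes at Slc26a4, the gene of the anion exchanger pendrin, were Slc26a4+/- (40 cells, postnatal days 26 to 33), Slc26a4-/- (69 cells, days 24 to 44) and, for the remaining cells, Slc26a4+/+ (days 22 to 42). Cells were freed with collagenase and drawn up one by one into a glass pipette. They fell into 37 collection sessions, each the cells of 1 genotype and age with the same day label and sequencing run. No label names the mouse of a cell, so each genotype was treated as 1 sample, no test between cell types or genotypes was made, and every SD below is between cells and not between animals.

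Total estimated counts per cell ranged from 1848 to 7932729 (median 1312950), and 20 cells, all Slc26a4+/+, held fewer than 100000. The libraries had no molecular identifiers, so counts include PCR copies. The most similar pair of cells had a correlation of 0.805, and no pair was identical. Sequencing fell into 4 batches by run date. All Slc26a4+/- cells were in batch 4, so genotype and batch can be separated only against the Slc26a4+/+ cells of batch 4, or of batch 2 for Slc26a4-/-. Batch 4 holds no Slc26a4+/+ cell of the marginal cell-like group named below, so Slc26a4+/- has no such control there. Slc26a4 RNA itself did not separate the labels: its mean in RC-like cells was 989 CPM (counts scaled to the same total in every cell) in Slc26a4+/+, 568 CPM in Slc26a4+/- and 1188 CPM in Slc26a4-/-, and in SC-like cells 912, 511 and 102.5 CPM. The deleted part of the gene is not given in the sources used here, so this RNA is no check of the genotypes, which rest on the labels.

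Cells were grouped by clustering in which the SLRP genes and their companion genes were left out of the genes used. Markers named 82 cells as intermediate cell-like (IMC-like, the pigmented cells that set the endocochlear potential), 37 as root cell-like (RC-like, epithelial cells whose processes reach into the spiral ligament), 33 as spindle cell-like (SC-like, pendrin-bearing cells at the margins of the stria) and 21 as marginal cell-like (MC-like, the cells that secrete potassium into endolymph). Of the RC-like cells, 91.9% scored highest for the RC markers, all 7 of which were detected. The other 91 and 17 cells formed a larger and a smaller cluster that the markers did not name. Of the larger, 65.9% scored highest for the IMC markers and 17 cells held fewer than 100000 counts.

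Epyc and the other measured SLRP genes lie in 3 blocks of neighbouring genes plus Bgn (chromosome X, 73483602 to 73495933) in the mouse genome build GRCm38. Dcn, Lum, Kera and Epyc follow each other on the plus strand of chromosome 10, where Dcn starts at 97479609, Lum at 97565128, Kera at 97606879 and Epyc at 97644068. Aspn, Omd and Ogn follow each other on chromosome 13, and Prelp (minus strand, 133910304 to 133921414) and Fmod (plus strand, 134037254 to 134048277) lie on chromosome 1. Epyc has 2 quantified transcripts, Epyc-201 and Epyc-202, whose starts are 3021 bases apart and which share their coding sequence. Their promoter windows from RefSeq (GRCm38.p6, 250 bases before to 50 after the start) are shown because most Epyc counts were assigned to Epyc-202, which begins at the downstream start, and the Prelp window is shown for comparison because Prelp was the one SLRP gene that was highest by 2-fold in another named cell type. Capitals mark the letters AGATAA (the GATA motif), ACAAAG (a SOX motif) or CCAAT, read on either strand.
Epyc, upstream start, chr10:97643818-97644117, plus strand: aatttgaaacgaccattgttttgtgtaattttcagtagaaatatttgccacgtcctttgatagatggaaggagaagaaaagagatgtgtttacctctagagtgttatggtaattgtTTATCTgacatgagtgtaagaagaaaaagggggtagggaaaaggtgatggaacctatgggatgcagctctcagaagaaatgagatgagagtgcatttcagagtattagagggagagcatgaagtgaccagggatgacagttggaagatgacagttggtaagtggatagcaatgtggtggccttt
Epyc, downstream start, chr10:97646853-97647152, plus strand: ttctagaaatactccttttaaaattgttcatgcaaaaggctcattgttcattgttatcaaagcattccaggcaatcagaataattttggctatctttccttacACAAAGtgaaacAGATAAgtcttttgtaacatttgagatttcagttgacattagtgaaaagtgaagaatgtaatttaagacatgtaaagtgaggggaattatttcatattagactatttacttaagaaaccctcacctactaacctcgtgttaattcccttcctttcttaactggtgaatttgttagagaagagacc
Prelp, chr1:133921352-133921651, minus strand: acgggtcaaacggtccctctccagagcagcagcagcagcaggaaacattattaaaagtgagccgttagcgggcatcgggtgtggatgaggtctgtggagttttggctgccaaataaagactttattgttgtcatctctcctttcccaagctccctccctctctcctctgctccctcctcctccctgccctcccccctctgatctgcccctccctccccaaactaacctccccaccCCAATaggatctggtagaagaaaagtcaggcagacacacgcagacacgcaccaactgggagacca
The upstream Epyc window holds AGATAA on the minus strand, and the downstream window holds AGATAA and ACAAAG on the plus strand. Of all 32544 promoter windows of this length, 11.2% hold AGATAA, 18.7% ACAAAG and 37.4% CCAAT on either strand. These letters are a description of the windows and no measure of binding.

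Epyc codes for epiphycan, a dermatan sulfate proteoglycan best known from growth plate cartilage. In Slc26a4+/+ mice its level was far higher in RC-like cells than in any other group of cells. In the 17 RC-like cells it ranged from 5.42 to 28672 CPM (median 5348, mean 8023 ± 7753 SD), and all 17 held at least 10 counts. The lowest RC-like cell, with 11 counts of Epyc, lay within the range of the other cell types and the next lowest was at 308 CPM. The 4 batch means of RC-like cells were 7372 (6 cells), 1219 (1 cell), 7455 (4 cells) and 10186 CPM (6 cells).

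Outside RC-like cells most cells had few or no counts of Epyc. SC-like cells had a mean of 56.3 ± 143.8 CPM (23 cells, median 2.86), with at least 10 counts in 6 cells. Their highest value, 541 CPM, was a single count in a cell of 1848 counts, and among SC-like cells with at least 100000 counts the mean was 14.6 CPM (21 cells). MC-like cells had 27.5 ± 62.6 CPM (14 cells, median 1.71), and IMC-like cells had 5.22 ± 14.0 CPM (38 cells, median 0.940). The order of SC-like, MC-like and IMC-like cells was not held in every batch: SC-like cells were above MC-like cells in 2 of 3 batches, and MC-like above IMC-like cells in 2 of 3. The distance from RC-like to SC-like cells was 7.13 on the log2(mean CPM + 1) scale and had the same direction in 4 of 4 batches, where it ranged from 5.58 to 10.45. Thinned to 100000 counts per cell, Epyc was detected in 93.8% of RC-like, 57.1% of MC-like, 19.05% of SC-like and 15.8% of IMC-like cells.

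Epyc ranked 3 of 47752 genes by mean CPM in RC-like cells, and 9 of 30803 genes by mean TPM, which also corrects for transcript length. On the TPM scale the 10 SLRP genes summed to a mean of 5899 in RC-like cells. Of this sum Epyc made up 84.8% (5001 TPM), Lum 13.1% (771 TPM), Prelp 1.25% (73.6 TPM) and Dcn 47.6 TPM. The RC-like cells thus held SLRP RNA that was mostly of a single class III gene.

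**Figure D1:**
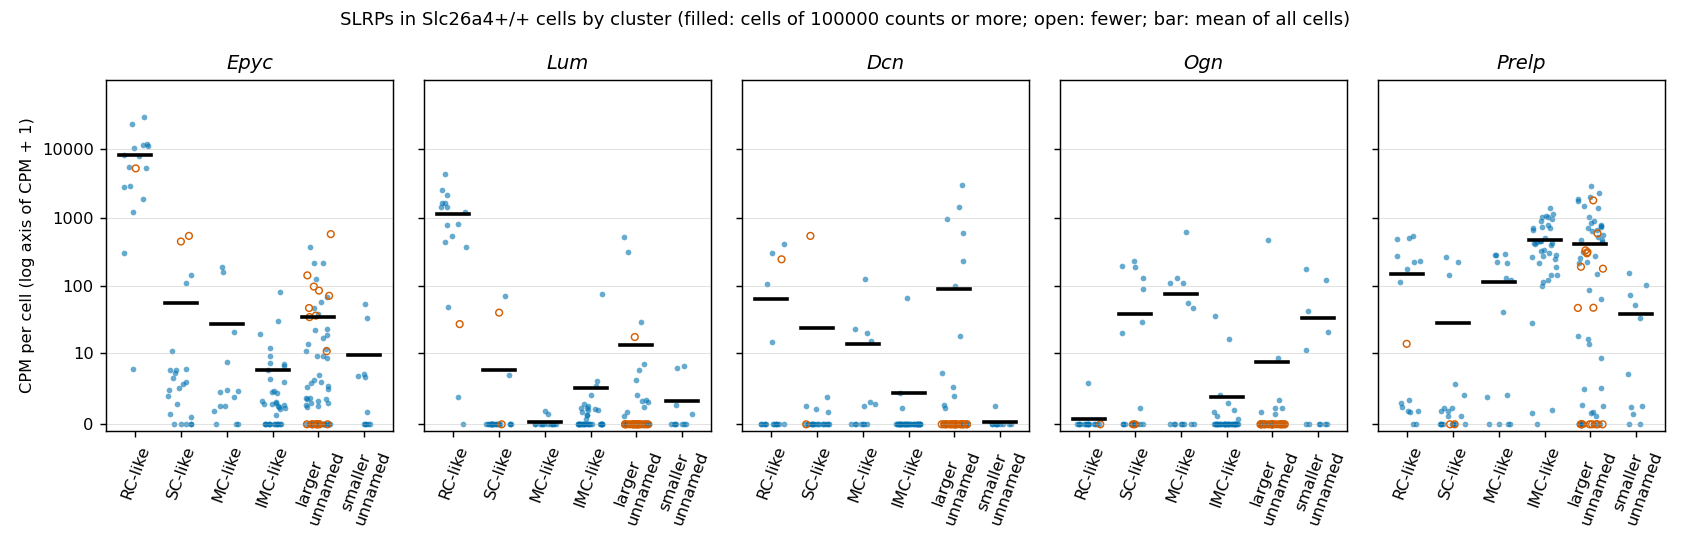
Levels of Epyc, Lum, Dcn, Ogn and Prelp (log axis of CPM + 1) in each Slc26a4+/+ cell, by cluster. Each point is 1 cell, filled with at least 100000 counts and open with fewer, and bars are means: Epyc and Lum stand highest in RC-like cells (means 8023 and 1128 CPM), and Prelp is spread over IMC-like cells and the larger unnamed cluster (means 464 and 413 CPM).

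Lum codes for lumican, a keratan sulfate proteoglycan that orders collagen fibrils in the cornea, and its levels followed the same cell types as Epyc. RC-like Slc26a4+/+ cells ranged from 0 to 4266 CPM (median 810, mean 1128 ± 1114 SD), and 14 of 17 held at least 10 counts. The means of SC-like, IMC-like and MC-like cells were 5.11, 2.37 and 0.0695 CPM. The distance from RC-like to SC-like cells was 7.53 on the log2(mean CPM + 1) scale and ranged from 5.45 to 9.63 in 4 of 4 batches. Batch means in RC-like cells were 637, 791, 1109.9 and 1686 CPM, in the order of batches 1 to 4, and Lum ranked 59 of 47752 genes there.

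Dcn codes for decorin, a class I proteoglycan that binds collagen fibrils and transforming growth factor beta. It was present in a minority of cells. Among the 17 RC-like Slc26a4+/+ cells, 5 held at least 10 counts, at 14.8, 108.7, 246.8, 305 and 413 CPM, and the median was 0 (mean 64.02 ± 129.2 SD). The cell at 246.8 CPM held only 72936 counts in all. SC-like cells had a mean of 23.7 CPM, all but a trace of it from 1 count in the shallow cell, and with at least 100000 counts the means were 52.6 CPM in RC-like and 0.164 CPM in SC-like cells. MC-like and IMC-like cells had 13.6 and 1.82 CPM. RC-like cells were higher than SC-like cells by 1.40 on the log2 scale, in 3 of 4 batches. Fibrocyte markers, a list of 9 genes of which 8 were detected, had a median sum of 40.9 CPM in RC-like Slc26a4+/+ cells (range 0 to 2006), 47.2 in SC-like and 48.5 in MC-like cells, and their part in the Dcn values was not tested.

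Fmod codes for fibromodulin, a keratan sulfate proteoglycan of tendon. It was seen almost entirely in a single RC-like Slc26a4+/+ cell (238.7 CPM), and a second cell held 3.02 CPM. The RC-like mean of 14.2 CPM therefore rests on 1 cell. Against the level that 3 counts over all cells of a type would give, it was at least 313.5-fold higher than in IMC-like cells, 185.4-fold higher than in SC-like cells and 101.7-fold higher than in MC-like cells, which held none.

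Prelp was the SLRP gene of IMC-like cells. Its protein binds collagen and heparan sulfate and links basement membranes to the connective tissue around them. In the 38 IMC-like Slc26a4+/+ cells it ranged from 0 to 1381 CPM (median 406, mean 464 ± 357 SD), and 35 cells held at least 10 counts. In RC-like cells the mean was 150.9 ± 194.7 CPM and the median 13.7, with at least 10 counts in 8 of 17 cells and almost none in the others. MC-like cells had 115.2 ± 123.6 CPM (median 83.1) and SC-like cells 28.1 ± 75.5 CPM (median 0, 3 of 23 cells with at least 10 counts). IMC-like cells were above RC-like cells by 1.61 on the log2 scale, in 4 of 4 batches, where the difference ran from 1.19 to 3.49 in batches 1, 3 and 4 and was 7.65 in batch 2 with its 1 RC-like cell. RC-like and MC-like cells did not keep their order, since RC-like cells were higher in 1 of 3 batches. MC-like cells were above SC-like cells in 3 of 3. In IMC-like cells Prelp made up 96.96% of the SLRP sum on the TPM scale (242.2 of 249.8 TPM).

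The IMC markers, a list of 12 genes, gave a measure of other RNA in the cells where Prelp was lower. Their summed level had a median of 50832 CPM in IMC-like, 2401 CPM in RC-like and 503 CPM in MC-like Slc26a4+/+ cells. The part of IMC RNA in the Prelp level of RC-like and MC-like cells was not tested.

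Ogn codes for osteoglycin, also called mimecan, which binds collagen in bone and cornea. It was found in few cells of 2 named types. MC-like Slc26a4+/+ cells had a mean of 76.5 ± 161.1 CPM (median 0, highest 609), with at least 10 counts in 6 of 14 cells. SC-like cells had 38.9 ± 74.4 CPM (median 0, highest 230), with at least 10 counts in 6 of 23. MC-like cells were higher by 0.96 on the log2 scale, in 2 of 3 batches, and 2 MC-like cells of batch 1 averaged 305 CPM. IMC-like and RC-like cells had 1.49 and 0.177 CPM. The smaller unnamed cluster had means of 34.4 CPM (Slc26a4+/+), 156.1 CPM (Slc26a4+/-) and 58.3 CPM (Slc26a4-/-).

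The remaining members were at or near 0 in every named cell type. Bgn, biglycan, a relative of decorin in bone and cartilage, had 2081 counts in the whole table, of which 2024 were in 1 cell of the larger unnamed cluster. Omd, osteomodulin of bone, had 140 counts, and its 2 highest cells held 35.4 and 31.9 CPM in the same cluster. Aspn, asporin, a collagen-binding protein of cartilage, had 8 counts in 2 cells. Kera, keratocan of the cornea, had 0 counts among the 445750007 of all cells, which allows a share of up to 1.07% of cells with a count. This limit covers counting error only.

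At a mean of at least 10 CPM in 1 or more of the named cell types, 6 members could be compared, and 4 of them (Epyc, Lum, Dcn and Fmod) were highest in RC-like cells by at least 2-fold. Lum and Fmod reached this level in RC-like cells alone, so no other type could have been their highest. Fmod did so through 1 cell, and Dcn was held by a minority of RC-like cells. The count is therefore no measure of the family as a whole. Of the 11384 genes that reached this level, 11.6% were highest in RC-like cells by that measure. Prelp was highest by 2-fold in IMC-like cells, as were 8.02% of genes. No member was so in SC-like or MC-like cells, where the shares of all genes were 8.48% and 6.16%, since Ogn missed the limit. Epyc and Lum were among the leading genes of the RC-like cluster although neither had entered the clustering.

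**Figure D2:**
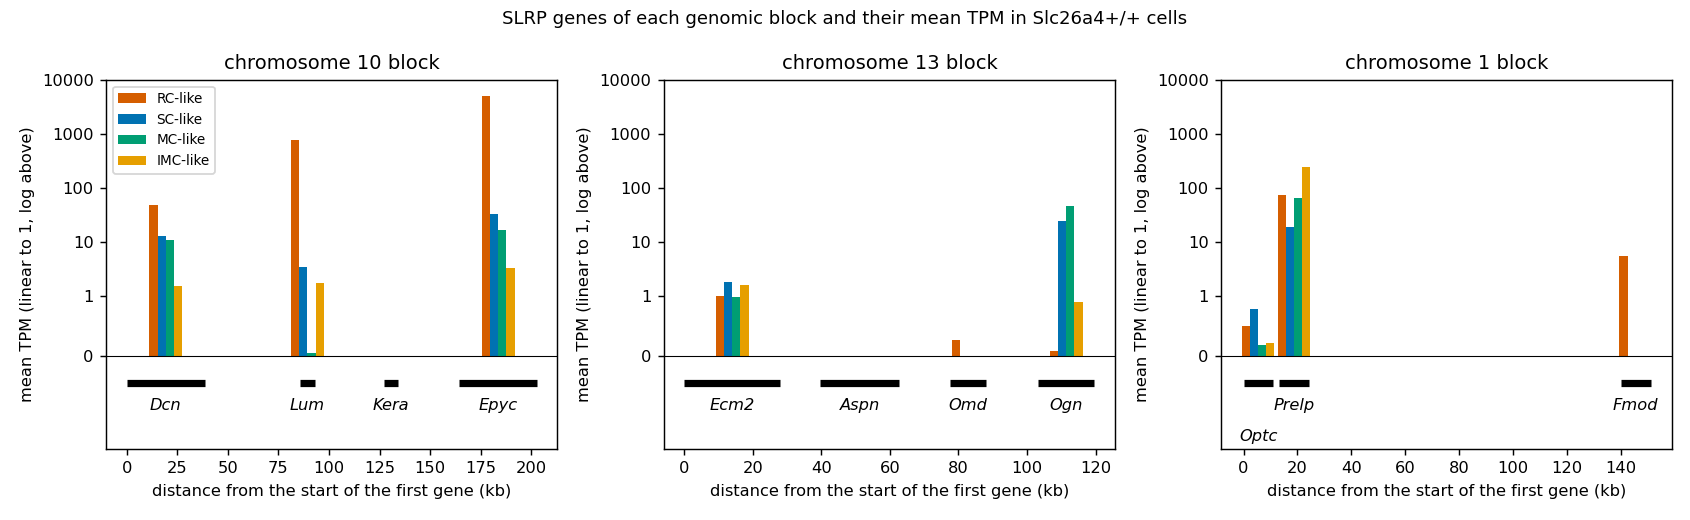
Mean TPM (linear to 1, log above) of each SLRP gene in the 4 named cell types of Slc26a4+/+ mice, set at its distance in kb from the first gene of its block, with Ecm2 and Optc as neighbours. In the chromosome 10 block Dcn, Lum and Epyc were all highest in RC-like cells (47.6, 771 and 5001 TPM) around Kera at 0, whereas on chromosomes 13 and 1 only 1 gene of each block, Ogn and Prelp, passed 10 TPM in any type.

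The gene order on chromosome 10 can be set beside these levels. Counted from the start of Dcn, Lum spans 85.5 to 93.1 kb, Kera 127.3 to 134.1 kb and Epyc 164.5 to 202.8 kb. Among the named cell types, the 3 expressed genes of this block were all highest in RC-like cells, but Dcn was held by fewer of them. The larger unnamed cluster had a higher Dcn mean in Slc26a4+/+ mice, 90.6 CPM against 64.02 CPM in RC-like cells. All RC-like Slc26a4+/+ cells held at least 10 counts of Epyc. Its presence in the 5 of them with at least 10 counts of Dcn was therefore given. Over all Slc26a4+/+ cells but the 20 with fewer than 100000 counts, Epyc and Lum had a Pearson correlation of 0.76 (log2 of CPM + 1), whereas Epyc and Dcn had 0.07. With Prelp it was 0.00 and with Ogn -0.09. These are descriptions over cells that share batches and dates. Exons of Epyc overlap an antisense gene, Gm10754, over 1041 bases, but that gene had 0 counts.

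Of 11044 genes, Lum was the most like Epyc by this measure. It was followed by Otogl (0.62), which codes for a tectorial membrane protein and is one of the RC markers, Scara3 (0.62), Ces1d (0.61) and Irx3 (0.61), a homeobox gene. For Lum the order was Epyc, Irx3 (0.70), Otogl (0.68), Scara3 (0.63) and Igfbp5 (0.62), a secreted binding protein of insulin-like growth factors. The genes most like Prelp were those of pigmented cells, with Tyr, tyrosinase, at 0.67 and Ednrb, the endothelin receptor and an IMC marker, at 0.66, then Alpl (0.64), Hpse (0.64) and Gpnmb (0.63). The closest to Dcn were Gm525 (0.56), Ppp1r1a (0.55), Slc4a11 (0.53), Tnfrsf11b (0.49) and Coch (0.49), the last 3 of which code for a borate transporter-like protein, osteoprotegerin and cochlin. Ogn came closest to Cldn8 (0.53), a claudin, Slco1a5 (0.51), Slit3 (0.49), Mall (0.48) and Hgf (0.47).

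Within RC-like cells alone the relation of Epyc and Lum was described for each genotype, over cells that are not replicates. Pearson's r was 0.57 in the 17 Slc26a4+/+ cells and 0.11 without the 2 cells farthest from the median of Epyc. It was 0.63 in the 6 Slc26a4+/- cells and 0.88 in the 14 Slc26a4-/- cells, where it was 0.76 without the 2 farthest cells. Spearman's rho was 0.57, 0.71 and 0.71. In Slc26a4+/+ cells the value of Pearson's r thus leans on 2 cells, while the rank-based rho over all 17 was 0.57. Whether the relation differs between genotypes was not tested.

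Counts were assigned to both Epyc transcripts in RC-like cells of every genotype. Epyc-202, which begins at the downstream start, took 77.9% of all Epyc counts in RC-like cells and 68.3% on the TPM scale. By genotype its share of counts was 76.4% (Slc26a4+/+), 71.3% (Slc26a4+/-) and 85.1% (Slc26a4-/-). Single cells ranged from 7.39% to 100% with a median of 73.4%, and Epyc-202 had more counts than Epyc-201 in 32 of 37 cells. Epyc-201 and Epyc-202 are 1723 and 2539 bases long, so counts favour the longer Epyc-202. The split was estimated by the authors' quantification from reads that mostly fall on shared sequence. Epyc-201 begins with a first exon of 22 bases, and Epyc-202 ends 554 bases further downstream. The split is therefore no direct measure of which start was used. Prelp had 1 dominant transcript, Prelp-201, with 95.3% of its counts over all cells, and Dcn-201 had 98.9%.

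**Figure D3:**
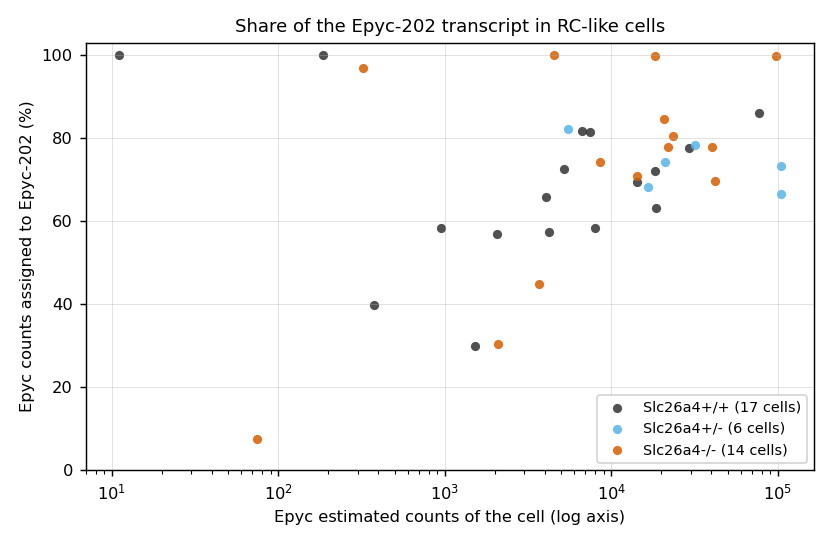
Share of Epyc counts on Epyc-202 (percent) against all Epyc counts (log axis) in each RC-like cell, coloured by genotype. Shares run from 7.39% to 100%, and 32 of 37 cells held more Epyc-202 than Epyc-201.

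Low counts of Epyc outside RC-like cells were frequent. Of the cells in the other 5 clusters, 82 held at least 10 counts and 16 reached 100 CPM, with a highest value of 574 CPM in the larger unnamed cluster. The ratio of Epyc to Lum counts was compared between RC-like cells and the others of the same batch. In batch 4 it was 5.43 in RC-like cells and lay between 4.30 (SC-like) and 7.80 (MC-like) in the other 5 clusters. In batches 1 to 3 the RC-like ratios were 21.2, 11.8 and 7.35, while those of other clusters, on few counts, ran from 0.420 to 145.3. The part of RC RNA carried into other cells was not tested, and a level of Epyc near that of IMC-like cells is not read here as expression.

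The first genotype question was whether RC-like cells of Slc26a4-/- mice, which lack pendrin, held different levels of SLRP RNA. Of 5 members that could be compared, 3 were 2-fold or more lower than in Slc26a4+/+ cells (Dcn, Fmod and Prelp), and Epyc and Lum were within 2-fold. Dcn and Fmod reached the level of 10 CPM through Slc26a4+/+ cells alone, Fmod through 1 cell of batch 1, which holds no Slc26a4-/- RC-like cell. With cell types set by marker score, the log2 differences of Epyc and Lum were 1.89 and 1.73, both past 2-fold. Among all genes 50% passed this limit in either direction and 28.2% were lower, so the limit separates little here. The same Slc26a4+/+ cells are the control of both other genotypes.

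Epyc in the 14 RC-like Slc26a4-/- cells ranged from 95.3 to 35026 CPM (median 8902, mean 11789 ± 10170 SD). In the 6 Slc26a4+/- cells it ranged from 3209 to 24556 CPM (median 12273, mean 12126 ± 7838 SD). These ranges overlap each other and that of Slc26a4+/+ cells almost entirely. The log2 differences from Slc26a4+/+ were 0.56 for Slc26a4-/- and 0.60 for Slc26a4+/-, both smaller than the spread between cells. Within batch 4 they were 0.29 (12482 against 10186 CPM) and 0.25. Batch 2 gave 3.18 for Slc26a4-/-, but it holds 1 Slc26a4+/+ RC-like cell (1219 CPM against 11095 CPM), and the median of all genes there was 4.41. By collection session the means ran from 5.42 to 22594 CPM over 12 sessions in Slc26a4+/+, from 4636 to 24556 over 4 in Slc26a4+/- and from 95.3 to 22671 over 7 in Slc26a4-/-. The median sum of the RC markers was 5719 CPM in Slc26a4+/+, 7403 in Slc26a4+/- and 8112 in Slc26a4-/- RC-like cells, and that of the SC markers 1995, 2396 and 5139. The part of either list in these values was not tested.

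Lum in RC-like cells was 1500 ± 1276 CPM in Slc26a4-/- (0 to 4435, median 1125) and 3020 ± 2836 CPM in Slc26a4+/- (214.3 to 7791, median 2145). The groups overlapped. The log2 differences from Slc26a4+/+ were 0.41 and 1.42, and within batch 4 they were 0.35 and 0.84, so that Slc26a4+/- passed 2-fold over all cells but not within batch 4, where 61.7% of all genes passed.

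**Figure D4:**
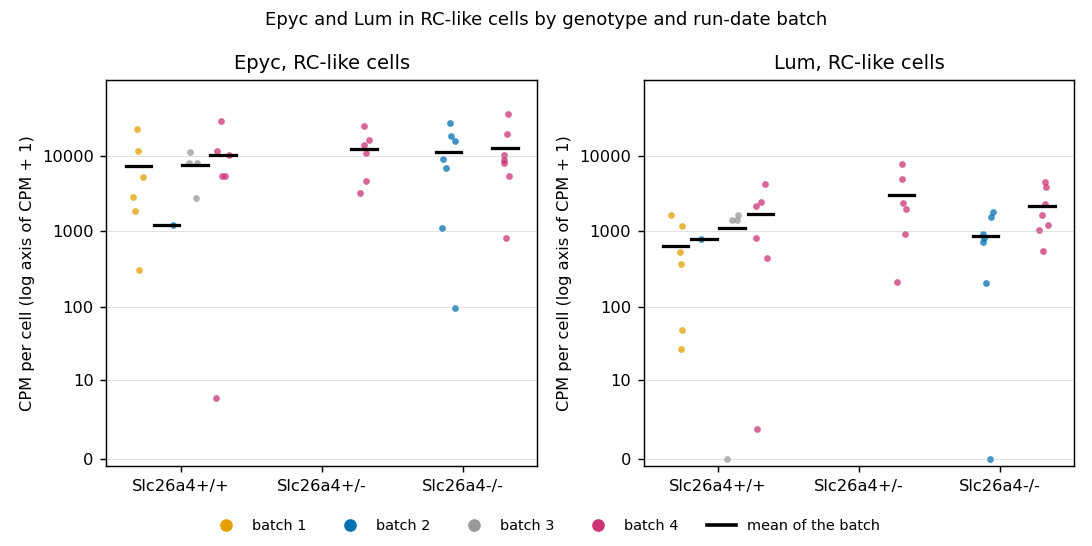
Epyc and Lum (log axis of CPM + 1) in each RC-like cell by genotype, with batches in colour and bars at the mean of each batch. Cells of the 3 genotypes overlap, with means over all batches of 8023, 12126 and 11789 CPM for Epyc and 1128, 3020 and 1500 CPM for Lum in Slc26a4+/+, Slc26a4+/- and Slc26a4-/-.

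The means of Prelp, Dcn and Fmod were lower in RC-like cells of Slc26a4-/- than of Slc26a4+/+ mice. In both genotypes only a minority of cells held at least 10 counts of each gene. At least 10 counts of Prelp were found in 3 of 14 Slc26a4-/- cells, at 79.9, 139.5 and 414 CPM, and the mean was 45.8 ± 113.8 CPM against 150.9 CPM (log2 difference -1.70). Within batch 4 the difference was -1.83 (70.9 against 253.9 CPM), and in batch 2 it was 3.58 in the opposite direction (20.7 against 0.807 CPM in 1 cell). The IMC marker sum of RC-like cells had a median of 2658 CPM in Slc26a4-/-, 2082 in Slc26a4+/- and 2401 in Slc26a4+/+. Dcn had a mean of 4.37 CPM in Slc26a4-/- cells, where 1 of 14 held at least 10 counts at 57.3 CPM, and the log2 differences were -3.60 overall and -2.92 within batch 4. In batch 4 the Slc26a4+/+ mean of 68.8 CPM came from 1 cell at 413 CPM, and the other 5 cells were at 0, below the Slc26a4-/- mean of 8.25 CPM. Fmod had no counts in RC-like cells of Slc26a4-/- or Slc26a4+/- mice, nor in Slc26a4+/+ RC-like cells of batches 2 and 4, so the genotypes cannot be compared for it within a batch.

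In Slc26a4+/- RC-like cells 2 of 5 members passed 2-fold, Lum higher and Fmod, through the same 1 Slc26a4+/+ cell, lower, where 57.4% of all genes did. Prelp was at 266.4 CPM (3 of 6 cells with at least 10 counts), a log2 difference of 0.82 over all cells and 0.07 within batch 4. Dcn was at 77.2 CPM, from 1 cell of 463 CPM.

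The next comparison was of Prelp in IMC-like cells. The 24 Slc26a4-/- cells ranged from 0.246 to 858 CPM (median 201.4, mean 263.1 ± 236.7 SD) and 21 held at least 10 counts. The 20 Slc26a4+/- cells ranged from 93.3 to 1495 CPM (median 706, mean 737 ± 380 SD) and all held at least 10. Cells of the 3 genotypes overlapped. The log2 difference from the Slc26a4+/+ mean of 464 CPM was -0.82 for Slc26a4-/-, and it was -1.45 within batch 4 (239.1 against 653 CPM) and -0.35 within batch 2 (283.4 against 362 CPM). For Slc26a4+/- it was 0.67 and, within batch 4, 0.17. The direction for Slc26a4-/- was thus the same in both batches, while it passed 2-fold in batch 4, where 46% of all genes did, and not in batch 2, where 62.8% did. Marker lists moved between the genotypes of IMC-like cells too: the median sums were 50832 CPM (Slc26a4+/+), 88876 CPM (Slc26a4+/-) and 81106 CPM (Slc26a4-/-) for the IMC markers, 1524, 2170 and 2803 CPM for the Schwann cell markers, 11.7, 0.421 and 113.4 CPM for the pericyte or smooth muscle markers and 566, 234.3 and 212.4 CPM for the MC markers. Their part in the Prelp values was not tested.

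**Figure D5:**
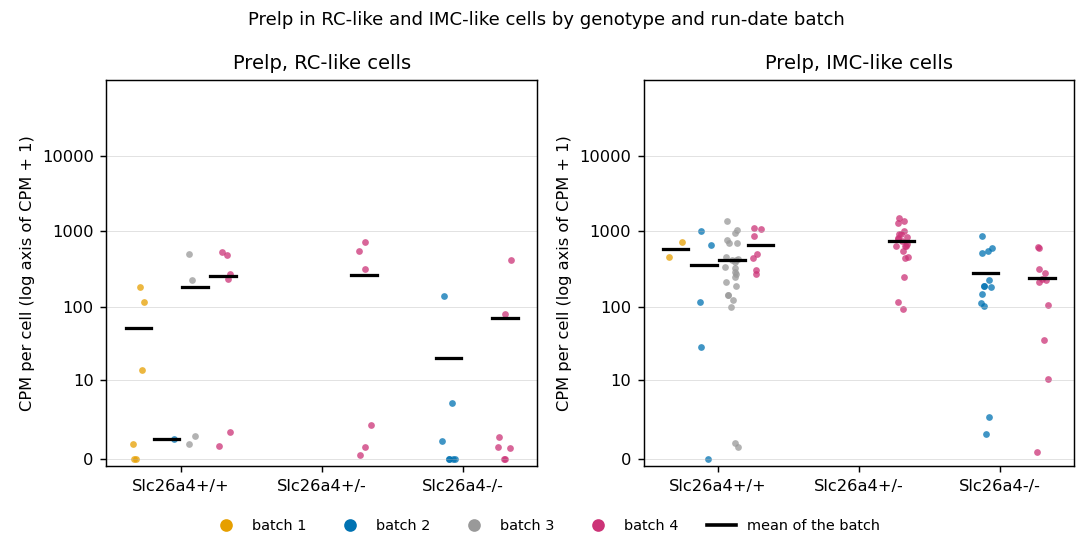
Prelp (log axis of CPM + 1) in each RC-like and IMC-like cell by genotype, with batches in colour and bars at the mean of each batch. IMC-like means over all batches were 464, 737 and 263.1 CPM in Slc26a4+/+, Slc26a4+/- and Slc26a4-/-, with overlapping cells.

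In IMC-like cells 1 of 2 members that could be compared, Epyc, passed 2-fold upward in Slc26a4-/- and also in Slc26a4+/-, where 30.3% and 29.8% of all genes passed in either direction and 12.9% and 11.5% upward. Epyc had means of 15.6 CPM in Slc26a4-/- and 18.5 CPM in Slc26a4+/- against 5.22 CPM. At least 10 counts were found in 13 of 24, 17 of 20 and 7 of 38 cells. Within batch 4 the log2 differences were 0.54 and 1.22, and in batch 2 that of Slc26a4-/- was 3.40 (19.5 against 0.939 CPM). All these levels were below 1% of those in RC-like cells. The ratio of Epyc to Lum counts in IMC-like cells of all genotypes was 6.14 in batch 4 (RC-like 5.43) and 145.3 in batch 2 (RC-like 11.8). The part of RC RNA in these levels was not tested.

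SC-like and MC-like cells were few, with 8 and 5 Slc26a4-/- cells and 2 Slc26a4+/- cells of each. In SC-like cells the SC markers had a median sum of 48705 CPM in Slc26a4+/+ and 13913 CPM in Slc26a4-/- and the MC markers 3575 and 9280 CPM, and in MC-like cells the SC markers had 2344 and 5334 CPM. The part of these lists in the values that follow was not tested. In SC-like Slc26a4-/- cells 2 of 4 members passed 2-fold, Dcn and Prelp, both lower, against 57.2% of all genes in either direction and 35% lower. Prelp was at 1.02 against 28.1 CPM there, but within batch 2 it was at 1.02 against 1.43 CPM. The Slc26a4+/+ mean of Dcn was the 1 count in the shallow cell: with at least 100000 counts it was 0.164 CPM, below the 2.70 CPM of Slc26a4-/- cells, so the direction turned. Epyc in SC-like cells was at 30.98 CPM in Slc26a4-/- and 35.97 CPM in Slc26a4+/-, within 2-fold of the Slc26a4+/+ mean of 56.3 CPM but more than 2-fold above the 14.6 CPM of Slc26a4+/+ cells with at least 100000 counts. Within batches the log2 difference of Epyc was 2.75 for Slc26a4-/- (batch 2, against 3.75 CPM in 2 cells, with a median over all genes of 3.17) and 2.35 for Slc26a4+/- (batch 4, against 6.27 CPM in 3 cells). Ogn was at 58.02 and 57.5 CPM, within 2-fold of Slc26a4+/+ over all cells, and in batch 2 the 2 Slc26a4+/+ cells held none. In SC-like Slc26a4+/- cells 2 of 5 members were lower by 2-fold, Prelp and, through the same count in the shallow cell, Dcn, against 64.6% of all genes in either direction and 43.5% lower. In MC-like cells 2 of 4 members passed for Slc26a4-/- (52.5% of all genes), Dcn higher through 1 cell and Ogn lower. Ogn had 0 counts in the 5 MC-like Slc26a4-/- cells, at least 301.8-fold lower than the Slc26a4+/+ mean of 76.5 CPM. That mean came with a median of 0 and a highest cell of 609 CPM, so Slc26a4+/+ cells without Ogn were found too. Batch 4, with 3 of the 5 Slc26a4-/- cells, holds no Slc26a4+/+ MC-like cell. In batch 2 the means were 0 CPM (2 Slc26a4-/- cells) against 40.3 CPM (4 Slc26a4+/+ cells). For Slc26a4+/- MC-like cells 4 of 4 members were lower, against 64.7% of all genes in either direction and 39.6% lower. These 2 cells were in batch 4, which holds no Slc26a4+/+ MC-like cell, so genotype and batch cannot be told apart for them.

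SC-like and RC-like cells together are the pendrin cells of the study. In this pooled set 3 of 5 members passed 2-fold in Slc26a4-/- (37.6% of all genes), Epyc higher by 1.13 on the log2 scale and Dcn and Prelp lower, and 3 of 5 in Slc26a4+/- (47.1% of all genes, 19.1% upward), Epyc (1.40), Lum (2.23) and Prelp (1.32), all higher. RC-like cells made up 17 of 40 pendrin cells in Slc26a4+/+, 6 of 8 in Slc26a4+/- and 14 of 22 in Slc26a4-/-. The pooled difference in Epyc therefore cannot be told apart from the mix of cell types, and within batch 4 it was 0.88 and 0.42.

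The genes that build and meet SLRPs were described from 6 companion lists, each by how many of its genes reached 10 CPM in a type and how many were highest there by 2-fold. Of all 47752 genes, the share at 10 CPM or above was 18.8% for RC-like and SC-like cells alike, 18.3% for the IMC-like and 16.3% for the MC-like. Of the 8 other genes of the SLRP family, 3 reached the level in RC-like cells and 1, Chad, which codes for the cartilage protein chondroadherin, was highest there (84.5 CPM). In SC-like cells 2 were, Chadl (87.9 CPM) and Tsku (116.9 CPM), the gene of tsukushi. Of 21 genes of chondroitin and dermatan sulfate assembly, 13 reached the level in RC-like cells. The 2 highest there were Dse (54.1 CPM), the epimerase that turns chondroitin into dermatan sulfate, and Chpf2 (224.3 CPM), a chondroitin chain polymerizing factor. In IMC-like cells 14 reached it and 4 were highest, Chsy3, Csgalnact1, Csgalnact2 and Chst11, which start, lengthen or sulfate chondroitin chains. Of 6 genes of keratan sulfate assembly, 5 reached the level in SC-like cells, and B3gnt7 (61.97 CPM), B4galt4 (202.4 CPM) and Chst2 were highest there, whereas Fut8 (433 CPM), which adds core fucose to N-glycans, was highest in RC-like cells.

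Of 12 genes of fibrillar collagens and their cross-linkers, 4 were highest in RC-like cells, namely Col2a1 (48.7 CPM) and Col11a1 (40.95 CPM) and Col11a2 (172.4 CPM), the collagens of cartilage fibrils, and Lox (61.98 CPM), lysyl oxidase. In IMC-like cells 3 were highest, Col5a3 (578 CPM) with Col3a1 and Loxl2, and in SC-like cells 3, Col1a1, Col5a1 and Loxl1. Of 18 other proteoglycans, 9 reached the level in RC-like cells, where Ncan, neurocan (49.5 CPM), and Gpc2, a glypican (120 CPM), were highest, and Sdc3, a syndecan (1372 CPM), led in IMC-like cells. Of 15 receptors and ligands that bind SLRPs, 12 reached the level in RC-like cells and 4 were highest there: Tlr2 (74.4 CPM), a receptor for biglycan, Lrp1 (188.5 CPM), an endocytic receptor of decorin, Bmp4 (173.9 CPM), a growth factor, and Bmp1 (36.4 CPM), a protease that trims procollagen and several SLRPs. Met (2360 CPM), which binds decorin, was highest in IMC-like cells. Many of these genes were held by few cells, and Bmp4 and Bmp1 had at least 10 counts in 3 and 1 of the 17 RC-like cells.

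In RC-like Slc26a4-/- cells, where 50% of all genes passed 2-fold, 10 of 15 genes of chondroitin and dermatan sulfate assembly did, 7 higher and 3 lower, and the 3 lower were Dse, Chpf2 and Chst15. Within batch 4 the count was 6 higher and 2 lower of 13, where 59.6% of all genes passed. Of 6 collagen and cross-linking genes, Loxl1 was higher and Col2a1, Col5a3 and Lox were lower, and within batch 4 the calls were Col11a1 and Loxl1 higher and Col2a1 and Col11a2 lower, of 5. Of 12 receptors and ligands, Bmp4 was higher and 5 were lower, Egfr, Met, Igf1r, Lrp1 and Bmp1. Within batch 4, Met, Igf1r and Lrp1 were again lower, with Tgfbr3 and Tlr4, while Bmp1 was higher, with Tgfbr1, and Bmp4 and Egfr were not past 2-fold. Of the 3 other SLRP family genes that could be compared, none passed over all cells, and within batch 4 Chad and Tsku were higher.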

How the data were processed

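Single cells were sequenced from poly(A) RNA by a Smart-Seq2 protocol. The authors quantified reads with kallisto on the mouse genome build mm10 (GRCm38), and the deposited table holds estimated counts and TPM for 98492 transcripts in each cell. The deposited counts of 47752 genes, in whole numbers, were divided by the cell's total to give CPM. The deposited TPM values were summed here over the transcripts of each gene, for the 30803 genes whose transcripts could be assigned in GENCODE M21 (1288 transcripts were not in it). Of 298 columns in the gene table, 17 matched no sample given here and were not used.

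Cells were clustered with Seurat (genes in at least 3 cells, scale factor 10000, 2000 variable genes of which 1980 were used after leaving out the SLRP and companion genes, 10 principal components, resolution 0.8). Names were given to clusters with 3 or more detected markers of a list for which no less than 80% of cells had their top score. Cells were picked singly and no doublet caller was run. No cell was removed for depth in the main values. Differences are log2 of mean CPM plus a pseudocount of 1, and a gene was compared where it had a mean of at least 10 CPM in either group and was called at a log2 difference of 1 or more. Genotypes came from the labels. Since mice are not named, no test was run. All 10 members were named, and for each of the 5 members seen in at least 10 cells at 10 counts, the 5 genes most like it by Pearson correlation. The members, lists and rules were chosen with earlier results of these data known. The analysis was tested on simulated data. A Clopper-Pearson interval at 95% and the limit of 3 counts cover counting error only. Python 3.11.15 with numpy 2.4.6, pandas 2.3.3, scipy 1.17.1 and matplotlib 3.10.9, and R 4.3.3 with Seurat 5.3.0 were used. Alternatives changed the unit, pseudocount, level, cell filter, clustering, averaging and batches.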

Additional observations from a re-analysis of the deposited data

Results flagged for a closer look

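Dcn had a mean of 90.6 CPM in Slc26a4+/+ cells of the larger unnamed cluster, which entered no comparison, above its mean in every named cell type. It came from 7 of 69 cells, the highest at 2934, 1402, 956, 601 and 229.5 CPM. The first 3 of them also held the fibrocyte genes Coch, cochlin, at 8607, 4730 and 2201 CPM, and Otos, otospiralin, at 1066, 6299 and 13742 CPM. The cell at 601 CPM held neither, and had Col1a1 at 22088 CPM together with the pigment cell gene Dct at 24557 CPM. Bgn had a mean of 14.27 CPM in the same cluster, also above every named cell type, and all but a trace of it was in that last cell (984 CPM), which also held Lum at 320 CPM and Prelp at 756 CPM. Whether these cells were single was not tested.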

How the results depend on the processing

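There were 15 alternatives chosen from the labels and 3 chosen after seeing the data (only cells with at least 100000 counts, and values within batch 2 or batch 4). The directions followed were of single genes by cell type, and by genotype in RC-like and IMC-like cells. Of these, 2 were reversed, both within batch 2, which holds 1 Slc26a4+/+ RC-like cell: Dcn by cell type (-2.35) and Prelp in RC-like Slc26a4-/- cells (3.58). Single genes in SC-like cells by genotype were not followed, and Dcn and Epyc turned there with at least 100000 counts, as given above. The excess of Epyc in RC-like cells over the next highest cell type (7.13 on the log2 scale) was 3.11 with types set by marker score alone, 10.25 within batch 4 and 4.45 within batch 2, and 6.72 to 7.61 leaving out each batch. Lum ranged from 3.39 to 9.53 and Ogn from 0.00 to 5.37. The Epyc difference in RC-like cells was 3.18 in batch 2 and 1.89 by marker score for Slc26a4-/-, where that of Lum was 1.73, and 1.43 for Slc26a4+/- with means of log2 values, and the share of Epyc-202 was 68.27% by TPM.

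Members expressed in IMC-like cells numbered 1, but 5 at a level of 1 CPM, 4 by marker score and 5 at resolution 0.4 or 1.2. In SC-like cells the 4 became 1 at 50 CPM, 0 with means of log2 values, 2 in batch 4 and 0 in batch 2. In RC-like cells the 5 became 3 with means of log2 values and 2 in batch 2, and in MC-like cells the 4 became 2 at 50 CPM and 1 with means of log2 values.

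Counts past 2-fold moved as follows. For RC-like Slc26a4+/- cells, the 2 became 1 by TPM or at 50 CPM, 4 by marker score, 0 in batch 4 and 1 to 2 leaving out each batch. For IMC-like Slc26a4-/- cells, the 1 became 0 with a pseudocount of 10 or at 50 CPM, 2 at 1 CPM, 3 by marker score, 4 at either resolution and 0 to 2 leaving out each batch. For IMC-like Slc26a4+/- cells, the 1 became 0 with a pseudocount of 10 or at 50 CPM, 3 at 1 CPM, 2 by marker score or with means of log2 values and 3 at either resolution. For SC-like Slc26a4-/- cells, the 2 became 0 at 50 CPM, 4 by marker score, 1 with means of log2 values or without the highest cell and 1 to 3 leaving out each batch. For SC-like Slc26a4+/- cells, the 2 became 0 at 50 CPM, 1 with means of log2 values and 1 to 3 leaving out each batch, and for pendrin Slc26a4+/- cells the 3 became 5 by marker score and 1 in batch 4. The causes were not tested. The count for RC-like Slc26a4-/- cells was 2 or 3 throughout, but in batch 2 it was of Epyc and Prelp, both higher, in place of Dcn, Fmod and Prelp, lower.

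No paired analysis was possible because the labels give no number shared between genotypes and name no mouse. The number of RC-like cells (17, 6 and 14), with 1 Slc26a4+/+ cell in batch 2, limits the genotype comparisons in that cell type.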
